A study of Homo sapiens with 4 samples.

Results

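The genes of the human mitochondrial genome, a circle of 16569 bases in GRCh38, were examined in leukaemic cells recovered from the brain and from the spleen of mice. Members were taken by position, with earlier results of these data known. They were every gene that GENCODE release 44 places on the mitochondrial chromosome, chrM: 13 protein genes, 2 ribosomal RNA (rRNA) genes and 22 transfer RNA (tRNA) genes. All 37 were present among the 65217 rows of the deposited gene count table. The cells were SEM, an established line of B-cell precursor acute lymphoblastic leukaemia with a KMT2A-AFF1 (MLL-AF4) gene fusion. They had been grown in culture and then transplanted into immunodeficient mice aged 6 to 10 weeks, of a strain and sex that the sources used here do not give. The brain group was blasts that the submitters' protocol describes as collected from the leptomeninges, the inner membranes around the brain, and the spleen group was blasts from the spleen, with no treatment named for either. Each group held 2 libraries, 1 from each of 2 separate occasions of the experiment, and each library pooled the RNA of 5 mice after a density gradient that enriches mononuclear cells, so the spread between single mice is not seen and the line is a single genetic background. The comparison asks how the mitochondrial transcripts of blasts in the central nervous system differ from those of blasts in the spleen.

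Mitochondrial DNA encodes a small set of membrane subunits of the respiratory chain and of ATP synthase, together with the rRNAs and tRNAs needed to translate them inside the organelle. Both strands are transcribed as long precursors by the polymerase POLRMT with the factors TFAM and TFB2M, and enzymes that cut at the ends of the tRNAs, which punctuate the genome between the other genes, release most of the rRNAs and mRNAs. Most of the mRNAs then receive short poly(A) tails, which for some of them complete the stop codon. The amounts of the mRNAs are set by decay as well as by transcription, with the complex of LRPPRC and SLIRP known to stabilise them. Leukaemic blasts depend to differing degrees on oxidative phosphorylation, the process that these subunits carry out.

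The layout of the genome bears on how its genes can be counted. The stretch from the last bases of MT-ND4 through MT-TH, MT-TS2 and MT-TL2 into MT-ND5, at chrM:12108-12366 on the plus strand of GRCh38, is shown because it joins genes whose values differed in direction. MT-TS2 and MT-TL2 are in capitals and follow each other with no base between them and their neighbours.
MT-ND4 end to MT-ND5 start: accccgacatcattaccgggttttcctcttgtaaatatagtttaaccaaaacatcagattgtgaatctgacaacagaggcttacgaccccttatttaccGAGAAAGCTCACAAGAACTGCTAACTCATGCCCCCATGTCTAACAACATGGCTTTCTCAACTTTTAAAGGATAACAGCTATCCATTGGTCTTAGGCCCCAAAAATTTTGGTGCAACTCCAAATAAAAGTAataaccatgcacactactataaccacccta
The reading frames of MT-ATP8 and MT-ATP6 overlap at chrM:8527-8572, and the 46 shared bases are in capitals within chrM:8507-8592 on the plus strand. Reads from these bases cannot be given to a single gene.
MT-ATP8 and MT-ATP6 overlap: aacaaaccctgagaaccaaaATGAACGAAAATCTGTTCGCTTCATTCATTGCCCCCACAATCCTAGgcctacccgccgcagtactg
The last 27 bases of 4 protein genes show how the genes end, with the letters of the stop codon in capitals. MT-ND4 at chrM:12111-12137 and MT-CO3 at chrM:9964-9990 stop on a single T that the poly(A) tail completes, while MT-ND5 at chrM:14122-14148 on the plus strand and MT-ND6 at chrM:14149-14175 on the minus strand carry a whole triplet annotated as the stop. MT-ND5 and MT-ND6 lie end to end on opposite strands, and the sequence of MT-ND6 is given in the direction of its RNA.
MT-ND4: ccgacatcattaccgggttttcctctT
MT-CO3: atgtctccatctattgatgagggtctT
MT-ND5: atcctaaccctactcctaatcacaTAA
MT-ND6: gtaattgagattgctcgggggaatAGG

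The gene counts summed to 36913437 and 33055465 in brain replicates 1 and 2 and to 32972842 and 26266136 in spleen replicates 1 and 2, and at least 99.7% of each library's counts were in rows found in the annotation. Human B-cell precursor markers were detected for 9 of 9 genes and summed to 2454 and 2326 CPM, which are counts scaled to the same library size, in brain against 1757 and 1904 CPM in spleen. Of these, CD22, a B-cell surface receptor, was the 1 gene called, with a log2 fold change of 1.48 ± 0.19 (SE) and an adjusted p of 0.0147 in edgeR's quasi-likelihood test. That test called 1.63% of all genes tested higher in brain. Over the 9 markers, 7 log2 fold changes were positive and 2 negative, from -0.33 for VPREB1 to 2.61 for IGLL1. With the occasion, taken from the replicate number, as a block in the test, 4 were called higher and 0 lower. Of all genes tested, 7.48% were called higher and 3.37% lower. Markers of other human blood cells summed to 2.92 and 2.72 CPM in brain and 4.09 and 3.80 CPM in spleen, and CD3D of T cells and PPBP of platelets had no count in any library. Neural markers summed to 132 and 117 CPM in brain and 92.8 and 89.4 CPM in spleen, nearly all of it MBP, which blood cells also transcribe, while SNAP25 of neurons had no count. Mouse transcripts took 2.24 and 1.45% of the estimated counts in brain and 4.31 and 6.32% in spleen. This share moved with the site in the same direction as most of the mitochondrial values below, and its part in them was not tested.

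The mitochondrial genome supplied a smaller share of the RNA counted in brain blasts. The 37 genes took 2.75 and 2.89% of all gene counts in brain, against 3.98 and 5.86% in spleen. The brain libraries lay close together and below both spleen libraries, while the spleen libraries stood well apart from each other. An exact two-sided permutation test over the 4 libraries gave p = 0.3333, the smallest value that 2 against 2 can give. Per transcript length the order was the same, with 6.32 and 6.90% of human TPM, the length-scaled abundance, in brain and 9.22 and 12.4% in spleen. A share of counts is not an amount per cell. In bulk libraries such as these, less mitochondrial RNA per cell, more RNA from other genes and a different mix of cells cannot be told apart.

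Every protein gene was lower in both brain libraries than in both spleen libraries. Of the 37 genes, 32 had counts enough to be tested, which took in all 13 protein genes, both rRNA genes and 17 of the 22 tRNA genes. Among those 32, edgeR called 2 genes lower in brain at an adjusted p under 0.05 and none higher, where 0.387% of the 17075 genes tested were called lower and 1.63% higher. At an unadjusted p under 0.05, 14 of the 32 were lower and 2 higher, against 9.94% and 10.7% of all genes tested. All 13 protein genes had non-overlapping groups with brain lower, as did 26.7% of all genes tested. Their median log2 fold change was -0.99, beside 0.04 over all genes tested, all 13 were negative where 46.7% of all genes tested were, and 10 of the 13 lay below -0.90, where 2.85% of all genes tested lay.

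The counts of calls depended on how the occasion was treated. With the occasion as a block, edgeR called 14 of the 32 lower and 1 higher, against 3.37% and 7.48% of all genes tested, and 10 of the 14 were protein genes. The block did not give smaller SE throughout. The SE of MT-ND2 was 0.22 with the block and 0.18 without it, of MT-ND1 0.22 and 0.20, and of MT-ND3 0.20 and 0.24. Over all genes tested, libraries of the same replicate number deviated from their groups with a correlation of 0.0116 (Pearson). For MT-ND2 the log2 fold change was -1.01 with the block and -1.03 without it, with unadjusted p of 5.8e-06 and 0.00055 in edgeR. For MT-ND1 it was -0.99 and -1.02, with unadjusted p of 9.7e-06 and 0.00116. In both genes the lower p thus came with a larger SE and a slightly smaller fold change. Lower p with the block are not read as stronger evidence here, and why they were lower was not tested. DESeq2 called 11 lower of the 27 genes for which it gave an adjusted p, among them 10 protein genes, and none higher, against 2.64% and 3.72% of the 15088 genes with one. With the GC and length trend removed from the counts, edgeR called none of the 32, against 0.533% lower and 2.16% higher over all genes tested. The median over the protein genes was then -0.75. With that trend removed and the occasion as a block as well, 2 were called lower, MT-ND1 and MT-ND2, and none higher, against 0.445% and 2.11% of all genes tested, so that 12 of the 14 genes called lower with the block alone and the 1 called higher were not called. The protein genes hold 39.6 to 47.7% GC where the median gene tested holds 48.1%. Without spleen replicate 2 the median was -0.63.

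**Figure D1:**
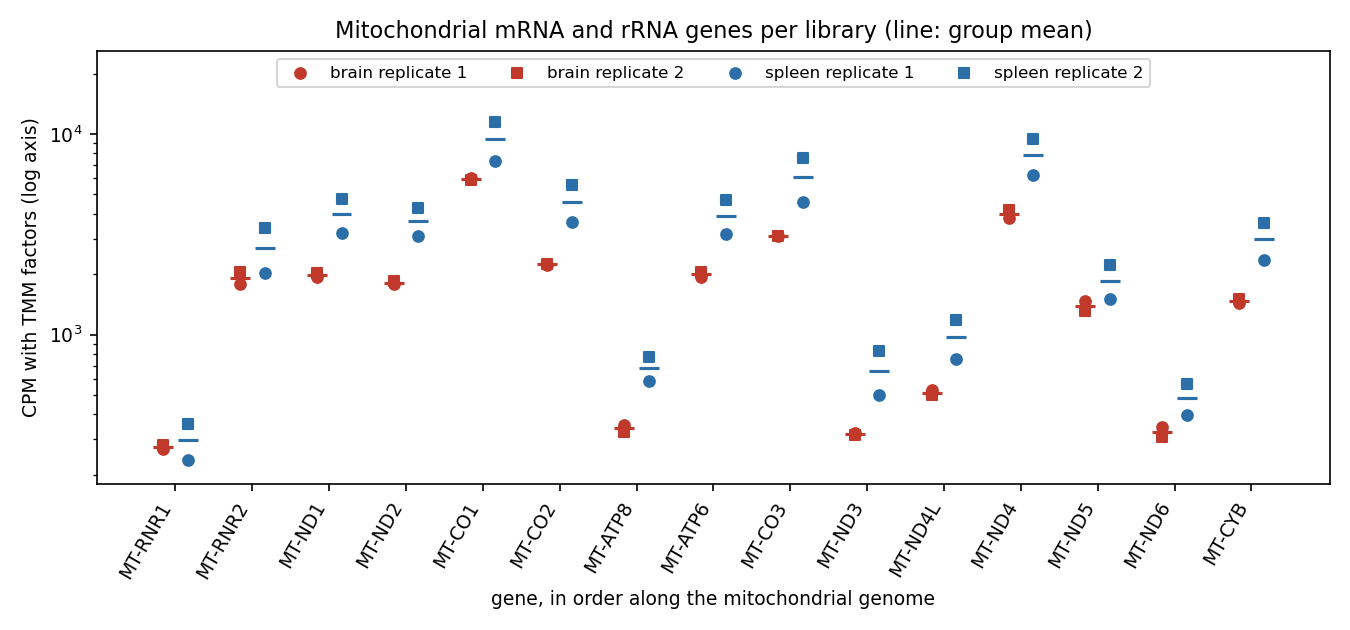
Levels of the 13 protein genes and 2 rRNA genes in CPM with TMM factors on a log axis, in order along the genome, with brain in red left of spleen in blue, a symbol per library and a line at each group mean. The brain points lie almost on each other and below both spleen points for each protein gene, whereas the rRNA genes overlap between the groups.

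Complex I, the NADH dehydrogenase that starts the chain, has 7 of its membrane subunits encoded here. MT-ND2, a proton-pumping subunit, had 1779.8 and 1838 CPM in brain against 3084 and 4281 CPM in spleen. Its log2 fold change was -1.03 ± 0.18 (SE), and edgeR's adjusted p was 0.0378. The call was lost with the GC and length trend removed, at a log2 fold change of -0.86 (adjusted p = 0.0792), and without brain replicate 1, at -1.01 (adjusted p = 0.0674). MT-ND1, which helps to form the quinone channel, was measured at 1927 and 2017 CPM in brain and 3212 and 4758 CPM in spleen, with a log2 fold change of -1.02 ± 0.20 and an adjusted p of 0.0542 in edgeR, or 0.00034 with the occasion as a block. MT-ND4, another pumping subunit, had 3832 and 4185 CPM in brain and 6251 and 9442 CPM in spleen. MT-ND3 and MT-ND4L are short membrane subunits with log2 fold changes of -1.05 ± 0.24 and -0.92 ± 0.22. For MT-ND3, MT-ND4L and MT-ND4 the adjusted p in edgeR lay between 0.0700 and 0.0976, and with the block all were below 0.05, the highest at 0.00155. With the trend removed and the block together these 3 had adjusted p of 0.156, 0.140 and 0.0551. Brain was lower in both occasions for each of these genes.

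Genes of the other complexes had log2 fold changes of like size, apart from MT-CO1. MT-CYB, the cytochrome b of complex III, was at 1437 and 1498 CPM in brain and at 2354 and 3600.0 CPM in spleen. MT-CYB had a log2 fold change of -1.02 ± 0.21, with an adjusted p of 0.0651 in edgeR and 0.000252 with the block. In complex IV, cytochrome c oxidase, MT-CO2, which takes electrons from cytochrome c, had 2214 and 2257 CPM in brain and 3655 and 5549 CPM in spleen. MT-CO3, a structural core subunit, had 3085 and 3083 CPM in brain and 4604 and 7616 CPM in spleen. Their log2 fold changes were -1.04 ± 0.21 and -0.99 ± 0.24, with adjusted p of 0.0577 and 0.0997 in edgeR and 0.000274 and 0.00124 with the block. In ATP synthase, MT-ATP8, a small membrane subunit, was called, with 356 and 325 CPM in brain and 584 and 772 CPM in spleen. Its log2 fold change was -0.99 ± 0.17, with an adjusted p of 0.0337 in edgeR. That call was lost with the GC and length trend removed, at a log2 fold change of -0.78 (adjusted p = 0.0731), and without brain replicate 2, at -0.93 (adjusted p = 0.0815). MT-ATP6, part of the proton channel, had 1945 and 2053 CPM in brain and 3154 and 4661 CPM in spleen, and its log2 fold change of -0.97 ± 0.20 had an adjusted p of 0.0612 in edgeR and 0.000765 with the block. With the trend removed and the block together, MT-CYB, MT-CO2, MT-CO3 and MT-ATP6 had adjusted p of 0.0552, 0.0614, 0.112 and 0.0675, so none of these 4 was called.

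Across the 13 protein genes, spleen replicate 2 held between 1.32 and 1.65 times the CPM of spleen replicate 1, whereas brain replicate 2 held between 0.891 and 1.09 times that of brain replicate 1. Each of the 13 had a larger difference in the second occasion than in the first. Within the first occasion the log2 ratio of brain over spleen ran from -0.79 for MT-ND2 to -0.03 for MT-ND5, and within the second from -1.39 for MT-ND3 to -0.76 for MT-ND5. In both occasions MT-ND5 was the protein gene with the smallest difference.

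**Figure D2:**
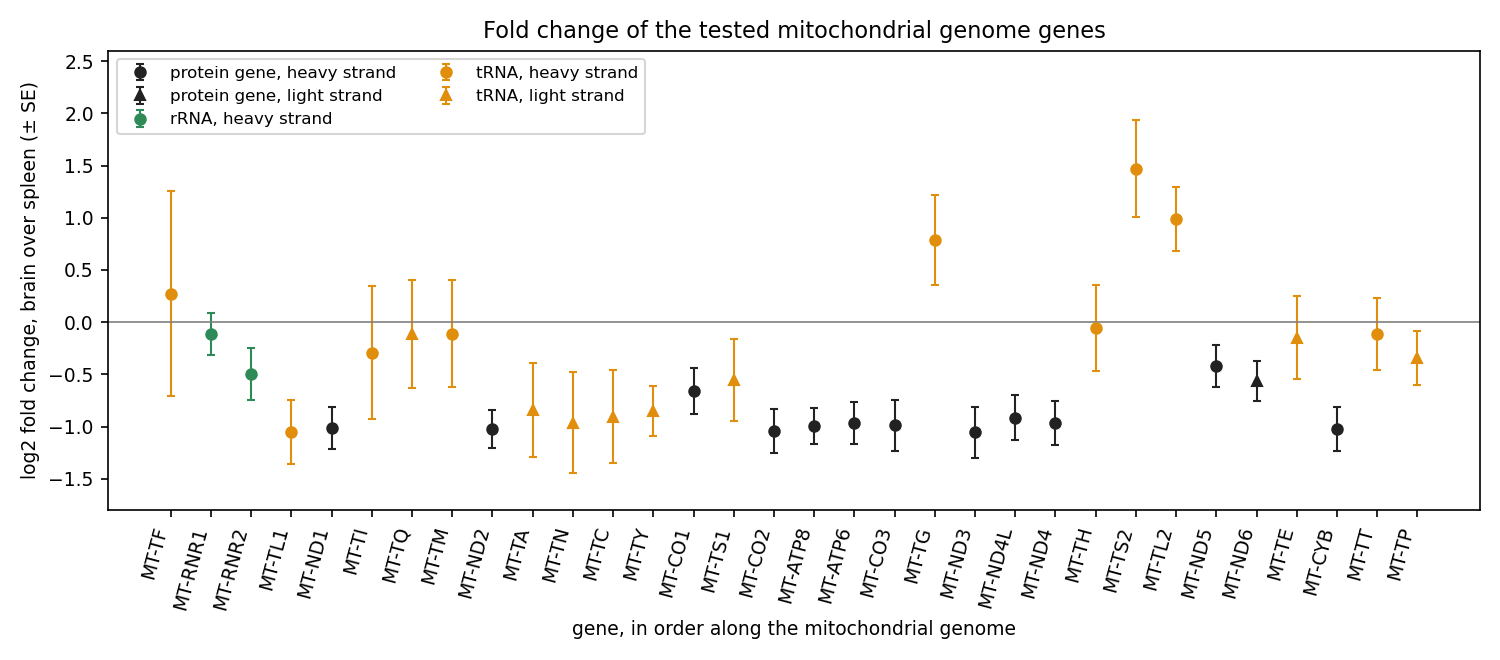
Log2 fold change of brain over spleen, with its standard error, for the 32 tested mitochondrial genes in order along the genome. Colour gives the class and marker shape the strand; most protein genes sit near -1, MT-ND5, MT-ND6 and MT-CO1 are nearer to 0, and MT-TS2, MT-TL2 and MT-TG lie above 0.

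MT-ND5, MT-ND6 and MT-CO1 stood nearer to 0 than the other protein genes. MT-ND5, the most distal proton-pumping subunit of complex I, had 1464 and 1305 CPM in brain and 1496 and 2213 CPM in spleen. Brain replicate 1 and spleen replicate 1 were almost level. MT-ND5 had a log2 fold change of -0.42 ± 0.20, with an adjusted p of 0.287 in edgeR and 0.253 with the block. MT-CO1, the catalytic subunit of cytochrome c oxidase, had 6044 and 5870.4 CPM in brain and 7364 and 11487 CPM in spleen. This gave MT-CO1 a log2 fold change of -0.66 ± 0.22, with an adjusted p of 0.157 in edgeR. MT-ND6, a complex I subunit and the only protein gene transcribed from the light strand, had 344 and 307 CPM in brain and 395 and 569 CPM in spleen. For MT-ND6 the log2 fold change was -0.57 ± 0.19, with an adjusted p of 0.160 in edgeR.

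Ratios within a library do not depend on its total, and they showed the same departures. MT-ND5 counts over those of the other 11 heavy-strand protein genes were 0.0624 and 0.0545 in brain and 0.0421 and 0.0408 in spleen. MT-ND5 over MT-ND4, the gene upstream of it on the same strand, came to 0.382 and 0.312 in brain, against 0.239 and 0.234 in spleen. Both brain libraries lay above both spleen libraries in each ratio, and the spleen libraries were close together although their totals for the genome were not. The MT-ND5 ratio was picked after its values were seen, and the exact permutation p of 0.3333 is the smallest this design can give. By share of the protein gene counts, MT-CO1 took 23.9 and 23.0% in brain, against 19.7 and 20.2% in spleen.

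The strands were compared through MT-ND6. The kit preserves strand but the sources used here do not say whether counting used it, so counts of MT-ND6 and of the light-strand tRNAs may hold reads of the opposite strand. The kit also selects poly(A) tails, so the counts of MT-ND6 depend on the capture of its tail too, which was not measured. MT-ND6 over the 12 heavy-strand protein genes came to 0.0138 and 0.0122 in brain, against 0.0107 and 0.0101 in spleen, with no overlap and an exact two-sided permutation p of 0.3333. Against its end-to-end neighbour MT-ND5, MT-ND6 went the other way, with a ratio of 0.2353 and 0.2352 in brain and of 0.264 and 0.257 in spleen.

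The shares of the complexes in the protein gene counts lay close between the groups. Complex I took 40.3 and 41.0% in brain and 42.0 and 40.9% in spleen, with overlapping groups. Complex IV took 44.9 and 43.9% in brain and 41.8 and 43.3% in spleen, and complex III 5.68 and 5.86% in brain and 6.29 and 6.32% in spleen. For complex V the shares were 9.10 and 9.31% in brain and 9.99 and 9.54% in spleen. Groups did not overlap for complexes III, IV and V, but the exact permutation p, adjusted over the 4 complexes, was 0.444 for each of them and 0.667 for complex I. On the per-length scale, complexes IV and V also overlapped.

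The genes were also grouped by how they end. The 6 genes whose stop codon is completed by the tail (MT-ND1, MT-ND2, MT-CO3, MT-ND3, MT-ND4 and MT-CYB) had log2 fold changes from -1.05 to -0.97 with a median of -1.02. The 7 that end on a whole triplet annotated as the stop ran from -1.04 to -0.42 with a median of -0.92. The 3 genes nearer to 0, singled out by these same values, were all among these 7. MT-CO1 and MT-ND6 end on the letters AGA and AGG, whereas MT-ND5 ends on TAA as MT-ATP6 and MT-ND4L do.

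The rRNA genes overlapped between the groups. MT-RNR1, the small-subunit rRNA, had 269 and 281 CPM in brain and 238 and 359 CPM in spleen. MT-RNR2, the large-subunit rRNA, had 1790.4 and 2047 CPM in brain and 2037 and 3379.6 CPM in spleen. For MT-RNR1 both brain libraries lay between the spleen libraries, and for MT-RNR2 the groups overlapped as well. Log2 fold changes were -0.12 ± 0.20 and -0.50 ± 0.25, with adjusted p of 0.777 and 0.323 in edgeR. The rRNA genes together over the protein genes gave 0.0815 and 0.0911 in brain and 0.0608 and 0.0656 in spleen, a ratio 1.37 times as high in brain with no overlap and an exact permutation p of 0.3333. MT-RNR1 over MT-RNR2 was also higher in brain, at 0.150 and 0.137, than in spleen, at 0.117 and 0.106. The library kit selects poly(A) tails, and mitochondrial rRNAs carry at most short ones, so these counts are not the rRNA content of the cells. Nuclear RNAs without a poly(A) tail summed to 22.3 and 15.5 CPM in brain and 53.0 and 11.1 CPM in spleen, the groups overlapping, and 0 of the 5 tested were called by edgeR, with 0 at an unadjusted p under 0.05. With the occasion as a block, 1 of the 5 was called lower in brain, where 3.37% of all genes tested were. It was RN7SL1, the RNA of the signal recognition particle, with an adjusted p of 0.0473. RN7SL1 had 11.4 and 5.15 CPM in brain and 23.6 and 6.52 CPM in spleen, for a log2 fold change of -0.87 ± 0.84 without the block. RN7SL2, another gene of the list, had an adjusted p of 0.990 with the block.

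**Figure D3:**
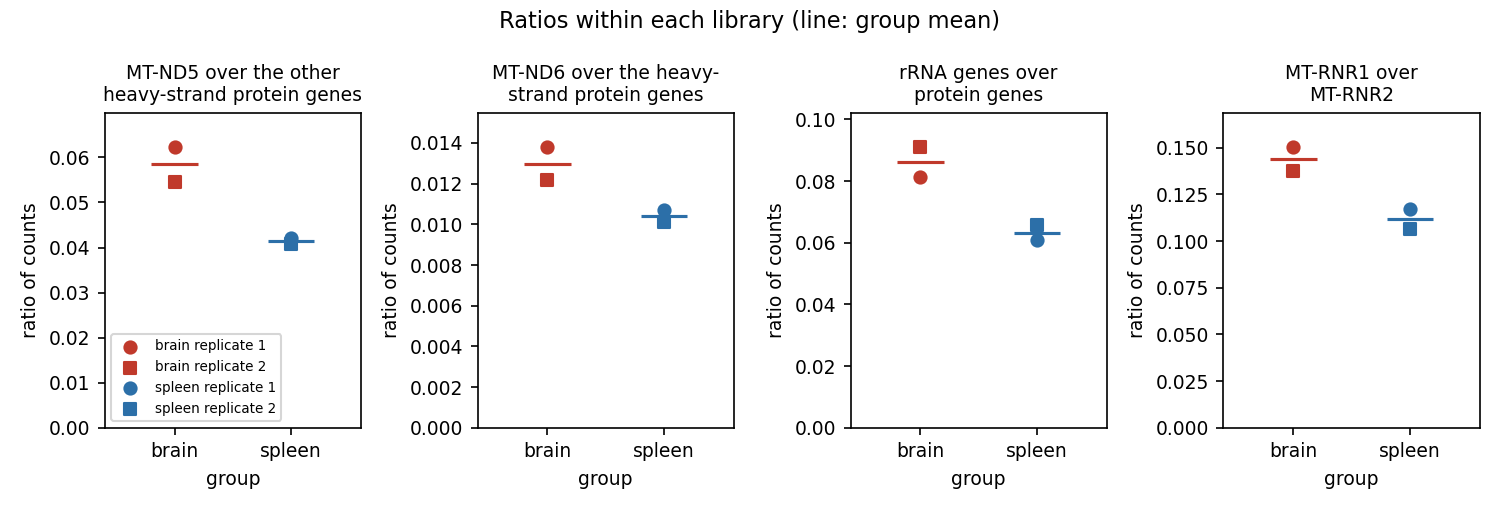
Ratios of counts within each library, for MT-ND5 over the other heavy-strand protein genes, MT-ND6 over the heavy-strand protein genes, the rRNA genes over the protein genes, and MT-RNR1 over MT-RNR2, with brain left of spleen, a symbol per library and a line at each group mean. In all 4 panels both brain libraries lie above both spleen libraries.

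The tRNA genes gave few counts, 2641 and 1946 in brain and 2266 and 3078 in spleen over all 22, and their log2 fold changes ran in both directions. Each is 59 to 75 bases long, so a read counted there may come from a precursor that still holds the tRNA. Of the 17 tested, edgeR called none, with 2 lower and 2 higher at an unadjusted p under 0.05, a share close to the 9.94% and 10.7% of all genes tested. DESeq2 gave an adjusted p for 12 of them and called MT-TY lower. With the block 4 were called lower, MT-TL1, MT-TY, MT-TA and MT-TN, and MT-TS2 was called higher, where 3.37% of all genes tested were called lower and 7.48% higher. With the trend removed and the block together none of these 5 was called, and their adjusted p ran from 0.0907 for MT-TS2 to 0.457 for MT-TN.

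Both tRNA genes directly before MT-ND5 had a higher level in each brain library than in either spleen library. MT-TS2, a serine tRNA, had 57 and 28 counts in brain and 16 and 9 in spleen. MT-TS2 had a log2 fold change of 1.47 ± 0.47, with an adjusted p of 0.142 in edgeR, 0.0345 with the block and 0.219 in DESeq2. MT-TL2, a leucine tRNA directly after it, had 111 and 77 counts in brain and 44 and 33 in spleen. Its log2 fold change was 0.99 ± 0.31, with an adjusted p of 0.135 in edgeR. Groups did not overlap for either, and brain was higher in both occasions. MT-TG, a glycine tRNA between MT-CO3 and MT-ND3, also did not overlap, with 25 and 22 counts in brain and 11 and 11 in spleen, and its log2 fold change of 0.79 ± 0.43 had an adjusted p of 0.336 in edgeR. These 3 were the only tested members with non-overlapping groups and brain higher, where 30.2% of all genes tested were of that kind. MT-TH, which lies between MT-ND4 and MT-TS2 in the sequence printed above, had 26 and 18 counts in brain and 19 and 18 in spleen, for a log2 fold change of -0.05 ± 0.41. MT-TS2 and MT-TL2 thus had log2 fold changes of the opposite sign to those of MT-ND4 before them and MT-ND5 behind them.

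MT-TL1, the other leucine tRNA, which follows the rRNA genes, had 113 and 76 counts in brain and 143 and 168 in spleen. MT-TL1 had a log2 fold change of -1.05 ± 0.31, with an adjusted p of 0.121 in edgeR and 0.0133 with the block. On the light strand, all 8 tRNA genes were tested and all 8 had a negative log2 fold change, with a median of -0.70. On the heavy strand 9 of 14 were tested, with a median of -0.05 and 4 positive values. Without spleen replicate 2 the medians were -0.05 on the light strand, with 3 positive values, and 0.83 on the heavy strand, with 7. With the GC and length trend removed they were -0.36, with 2 positive values, and 0.16, with 7. As for MT-ND6, the strand of these reads is uncertain. MT-TP, the proline tRNA and the most counted of the 22, had 894 and 758 counts in brain and 720 and 937 in spleen, which overlap. MT-TA, MT-TN, MT-TC and MT-TY, for alanine, asparagine, cysteine and tyrosine, form a cluster on the light strand, with log2 fold changes from -0.96 to -0.84. MT-TA had 353 and 292 counts in brain and 314 and 583 in spleen, and MT-TN had 309 and 201 in brain and 269 and 498 in spleen, so both overlapped, and spleen replicate 2 stood alone as the high library. MT-TY had 369 and 239 counts in brain and 442 and 438 in spleen, with an adjusted p of 0.113 in edgeR, 0.0102 with the block and 0.0460 in DESeq2. The 5 tRNA genes not tested (MT-TV, MT-TW, MT-TD, MT-TK and MT-TR) had between 2 and 17 counts in every library, and at this depth 3 counts are worth between 0.0813 and 0.114 CPM.

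Levels between genes were compared per length, in TPM rescaled over human transcripts. In brain, MT-CO3 averaged 6892 ± 262 TPM (SD, n = 2), MT-CO1 5972 ± 69.2 TPM and MT-CO2 5965 ± 325 TPM, and the values of MT-CO1 and MT-CO2 overlapped. MT-ND4L and MT-ATP6 followed at 5443 and 5368 TPM with overlapping values, then MT-ND4 at 4569, MT-ND1 at 3448, MT-ND2 at 2852 and MT-ND3 at 2454 TPM, each apart from the next. The ranges of MT-CYB at 2079 and MT-RNR2 at 1904 TPM overlapped, with MT-CYB the higher within each brain library. MT-ND6 at 1252, MT-ND5 at 1159 and MT-RNR1 at 483 TPM were the lowest of the 15 protein and rRNA genes. In spleen MT-CO3 averaged 12097 ± 3373 TPM (SD, n = 2). From MT-CO3 down to MT-CYB the ranges of neighbours over the spleen libraries overlapped. Within each spleen library the order from the highest was the same, MT-CO3, MT-CO2, MT-ATP6, MT-ND4L, MT-CO1, MT-ND4, MT-ND1, MT-ND2, MT-ND3 and MT-CYB. MT-ND5 was the protein gene of lowest level at both sites, at 1159 ± 57.8 TPM in brain and 1388 ± 279 TPM in spleen. Its range in spleen overlapped with that of MT-ND6, but MT-ND5 was the lower within each spleen library. MT-ATP8 was listed highest, at 11840 ± 1638 TPM in brain and 18702 ± 2564 TPM in spleen, but of its 207 bases only 35.1 to 45.4 counted as effective length, so its level rests on a large correction.

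Parts of the protein and rRNA genes also exist as copies in the nuclear genome, and the estimated counts divide the reads that match both. The share of a gene's 31-base words also found in nuclear transcripts was 66.7% for MT-CO1, 62.8% for MT-ATP6, 56.9% for MT-ND2, 50.5% for MT-CO2 and 45.0% for MT-CO3. It was 4.95% for MT-CYB and 3.48% for MT-ND3, and 0 for every tRNA gene. MT-CYB and MT-ND3, with almost no shared words, had log2 fold changes of -1.02 and -1.05. For the genes with many, the values were -0.66 for MT-CO1, -0.97 for MT-ATP6, -1.03 for MT-ND2, -1.04 for MT-CO2 and -0.99 for MT-CO3. MT-ND5, with 15.1% of its words shared, had -0.42. The part of the copies in these values was not tested. Among the 391 nuclear copies 314 had no count in any library. MTATP6P1, which holds 61.3% of the words of MT-ATP6, had 277 and 266 CPM in brain and 399 and 632 CPM in spleen. That copy had a log2 fold change of -0.93 ± 0.22, with an adjusted p of 0.0963 in edgeR and 0.000327 with the block. MTND2P28 and MTND1P23 had log2 fold changes of -0.93 ± 0.25 and -0.92 ± 0.32, MTCO1P12 had -0.49 ± 0.30 and MTCO3P12 had -1.38 ± 0.57. As part of the words is shared, counts under these copies may hold reads of the mitochondrial genes, which was not tested. Adding the counts of the nuclear copies of protein and rRNA genes left the share of the genome in the counts without overlap between groups.

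Nuclear subunits of the same complexes had negative median log2 fold changes, nearer to 0 than that of the mitochondrial protein genes. Of 109 nuclear genes tested from lists of mitochondrial function, edgeR called 0, with 40 lower and 0 higher at an unadjusted p under 0.05, where 9.94% and 10.7% of all genes tested were. DESeq2 called 11 lower and none higher, against 2.64% and 3.72% of all genes with an adjusted p. The block called 13 lower and 1 higher, against 3.37% and 7.48%. With the trend removed as well it called 0, against 0.445% lower and 2.11% higher over all genes tested. In complexes I, III, IV and V, DESeq2 called 1, 3, 3 and 1 subunits lower and the block 1, 3, 3 and 2. The median log2 fold change was -0.49 over 7 core subunits of complex I, -0.51 over 9 of complex III, -0.47 over 10 of complex IV and -0.44 over 12 of complex V, with no positive value in any of these lists, beside 0.04 over all genes tested. With the GC and length trend removed these medians were -0.19, -0.25, -0.17 and -0.21, with 1 positive value in each of complexes III and V. Without spleen replicate 2 they ran from -0.34 to -0.27, with 1 positive value in complex III. Complex II, which has no mitochondrially encoded subunit, had a median of -0.14 over 4 genes, or 0.01 with the trend removed.

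Among the most abundant members, NDUFV1, which binds NADH in complex I, had 121.0 and 122 CPM in brain and 141 and 185 CPM in spleen, for a log2 fold change of -0.42 ± 0.16. COX4I1, a regulatory subunit of complex IV, had 266 and 251 CPM in brain and 330 and 432 CPM in spleen, for a log2 fold change of -0.56 ± 0.16. Neither overlapped between groups, and their adjusted p in edgeR were 0.199 and 0.120. UQCRC1, a core protein of complex III, had -0.56 ± 0.19, ATP5F1B and ATP5F1A, the catalytic head of ATP synthase, had -0.26 ± 0.15 and -0.26 ± 0.14, and SDHA and SDHD of complex II had -0.08 ± 0.15 each. NDUFS1, UQCRC2 and COX7C had -0.04 ± 0.13, -0.02 ± 0.13 and -0.19 ± 0.15, each with overlapping groups.

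**Figure D4:**
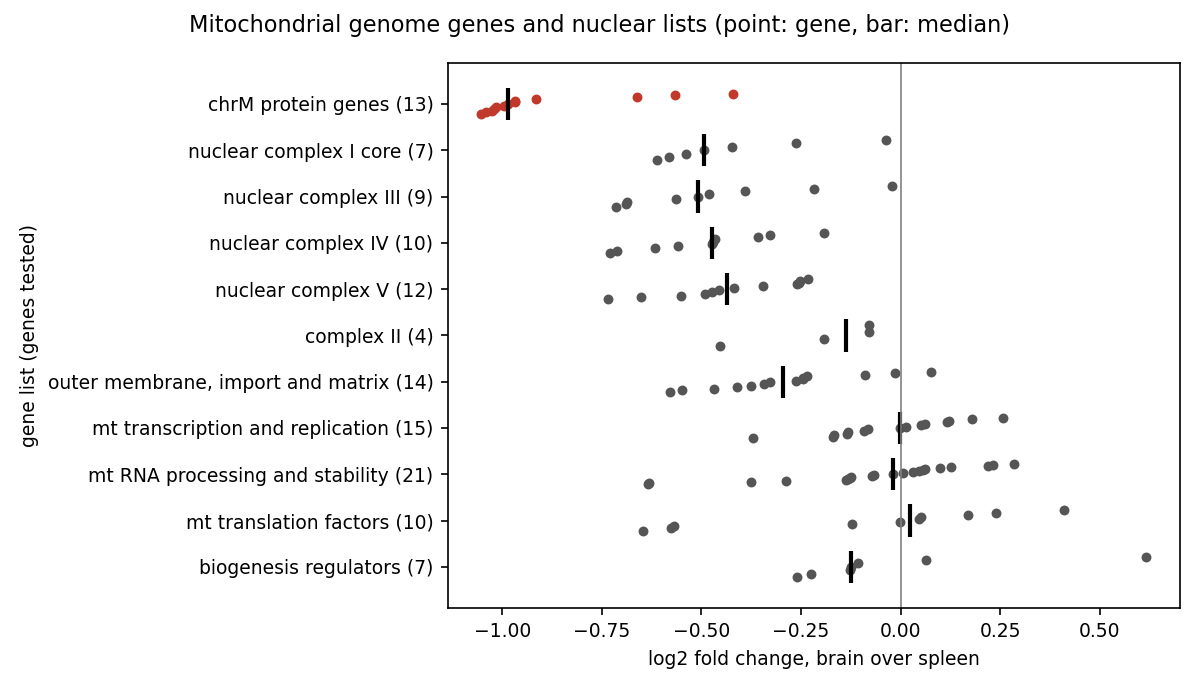
Log2 fold change of brain over spleen for the 13 mitochondrial protein genes in red and for nuclear gene lists in grey, a point per gene and a bar at each list's median. The median of the mitochondrial protein genes lies furthest below 0, those of nuclear subunits of complexes I, III, IV and V lie between -0.51 and -0.44, and the lists of mitochondrial transcription, RNA processing and translation centre near 0.

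The genes that make and process the mitochondrial RNAs were centred near 0. Lists of transcription and replication, of RNA processing and stability and of translation factors had medians of -0.00, -0.02 and 0.02 over 15, 21 and 10 genes. With the GC and length trend removed they were -0.04, -0.09 and 0.01, and without spleen replicate 2 they were -0.06, -0.07 and -0.18. TFAM, which packages the genome and starts transcription, had 148 and 149.5 CPM in brain and 156 and 118 CPM in spleen, for a log2 fold change of 0.12 ± 0.17. POLG, the DNA polymerase of the organelle, had -0.00 ± 0.15. LRPPRC had 293 and 271 CPM in brain and 262 and 218 CPM in spleen, with no overlap, a log2 fold change of 0.23 ± 0.15 and an adjusted p of 0.403 in edgeR. SLIRP, its partner, had 34.6 and 31.8 CPM in brain and 53.2 and 49.9 CPM in spleen, with a log2 fold change of -0.63 ± 0.15 and an adjusted p of 0.0863 in edgeR or 0.0417 with the block. HSD17B10, a subunit of the RNase P that cuts the tRNA ends, had a log2 fold change of -0.63 ± 0.17 with an adjusted p of 0.108 in edgeR and 0.0344 with the block. SLIRP and HSD17B10 were named after their values were seen, and neither was called with the trend removed and the block together. GRSF1, an RNA-granule protein that binds light-strand RNAs, had -0.13 ± 0.13. TUFM, the elongation factor that brings tRNAs to the ribosome, had 269.6 and 263 CPM in brain and 351 and 484 CPM in spleen. Its log2 fold change was -0.65 ± 0.17, with an adjusted p of 0.104 in edgeR and 0.0189 with the block, while GFM1, another elongation factor, had 0.05 ± 0.16. Regulators of mitochondrial biogenesis had a median of -0.13 over 7 genes, with YY1 at -0.11 ± 0.13 and PPRC1 at 0.06 ± 0.15. Another regulator, GABPA, had 89.8 and 93.5 CPM in brain and 83.1 and 36.3 CPM in spleen. Its log2 fold change was 0.62 ± 0.44, with an adjusted p of 0.493 in edgeR and 0.00888 with the block. GABPA was named after its values were seen, and it was not called with the trend removed and the block together. Proteins of the outer membrane, import and matrix had a median of -0.29 over 14 genes, with the chaperone HSPD1 at -0.24 ± 0.13 and the channel VDAC1 at -0.34 ± 0.15.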

How the data were processed

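RNA of human SEM cells pooled from 5 mice per library was sequenced in 2 brain and 2 spleen libraries, with poly(A) selection and a stranded kit, per the labels' protocols. The submitters' processing notes name bcl2fastq 1.8.4, cutadapt 1.5, kallisto 0.42.4, DESeq2 and the builds GRCh38 and GRCm38. For the strand setting, annotation release and purity values the sources used here give nothing. The authors deposited whole gene counts, and per transcript estimated counts and TPM, per the file headers. Over the mitochondrial genes the gene counts equal the rounded estimated counts. Of the count table's columns, 1 belongs to no sample here and was not used, nor was the deposited table of regularised log values.

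Members were matched by gene ID to GENCODE 44, which held 56322 of the 65217 rows, and sequences were read from GRCh38. Members and lists were chosen with earlier results of these data known. Named nuclear genes were up to 4 called per list, or else the 2 most abundant, and the 5 most abundant nuclear copies. The test was edgeR 4.0.16 (R 4.3.3), quasi-likelihood with TMM factors, its default expression filter and Benjamini-Hochberg adjustment over all genes tested, with no block. Fold changes are log2, with brain over spleen, and CPM use TMM factors. DESeq2 1.42.0, other factors, other filters, transcript sums, a GC and length trend, and leaving out each library were alternatives. GC and length were available for 97.8% of the genes tested. Single ratios used exact two-sided permutation tests. The main test, without a block, was also run on simulated counts that gave every gene the same spread. The block, DESeq2 and the removal of the GC and length trend were not run on simulated counts.

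The labels number the replicates and name 2 occasions of the experiment. That libraries with the same number share an occasion was taken from these numbers. Libraries with the same number deviated from their groups with a correlation of 0.0116 (Pearson) and -0.0195 (Spearman) over 17075 genes. Library totals ran from 26266136 to 36913437 counts, and 3 counts are taken as the floor, which covers counting error only. With 2 pooled libraries per group, p-values measure the spread between pools.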

Additional observations from a re-analysis of the deposited data

Results flagged for a closer look

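Transcripts of the mouse host lie outside the mitochondrial comparison and were counted in every library. They came to 846478 and 486164 estimated counts in brain and to 1486722 and 1772913 in spleen. There was no library without mouse cells to set a background. By share of counts, both spleen libraries lay above both brain libraries for mouse and for mitochondrial transcripts alike. Within brain the order differed, as replicate 1 had the larger mouse share (2.24 against 1.45%) and the smaller mitochondrial share (2.75 against 2.89%). The part of one in the other was not tested.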

How the results depend on the processing

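With 2 pooled libraries per group, counts of calls depended on the setting. For all genes, the 345 called became 2123 with no filter, 210 with a stricter filter, 959 with DESeq2, 1853 with the replicate block and 201 with protein-coding genes only, and 404 to 6808 when 1 library was left out. For the mitochondrial genome, the 2 called became 19, 1, 11, 15 and 1 under the same settings, 0 with the GC and length trend removed, and 2 to 24 with 1 library left out. For the nuclear lists, the 0 called became 23 with no filter, 11 with DESeq2 and 14 with the block, and 0 to 73 with 1 library left out, the highest without spleen replicate 1. Fits with 1 library in a group assume that it varies like the other group.

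The protein genes' median of -0.99 was -0.73 with the GC and length trend removed together with the replicate block, and -1.29 to -0.63 with 1 library left out. MT-ND2 was not called with the stricter filter (adjusted p = 0.0554) or protein-coding genes only (adjusted p = 0.0531), and MT-ATP8 was not called with the trend and block together (adjusted p = 0.0630). Complex V's difference in share, lower in brain by counts, was 0.47 percentage points higher in brain per length. With the trend removed, without and with the block, log2 fold changes turned positive for MT-RNR1 (0.11 and 0.13), MT-TQ (0.24 and 0.24), MT-TM (0.16 and 0.18), MT-TH (0.14 and 0.14), MT-TE (0.083 and 0.11) and MT-TT (0.10 and 0.11). Leaving out 1 library, they ran from -0.43 to 0.22 for MT-RNR1, -0.78 to 2.84 for MT-TF, -1.03 to 0.83 for MT-TI, -0.54 to 0.32 for MT-TQ, -0.52 to 0.25 for MT-TM, -0.28 to 0.14 for MT-TH, -0.57 to 0.32 for MT-TE, -0.29 to 0.021 for MT-TT and -0.73 to 0.10 for MT-TP. The cause was not tested. All 32 tested genes kept their direction and call with other scaling factors and with transcript sums.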
